A study of Mus musculus with 12 samples.

Results

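The AP-1 and EGR immediate-early factors are transcription factors whose genes are among the first to be transcribed when a cell meets serum or a hormone. The 10 genes followed were Fos, Fosb, Fosl1 and Fosl2 of the Fos family, Jun, Junb and Jund of the Jun family, the related factor Atf3, and the zinc finger factors Egr1 and Egr2. A probe was taken when its transcript accession belonged to one of them, which gave 12 of the 41174 non-control probes on the array for these 10 genes. Fosl2 and Junb have 2 probes each. The brighter probe is called the lead probe here and the other the further probe.

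The cells were 3T3-L1, a mouse fibroblast line that turns into adipocytes in culture after hormonal induction, and the study asked which mRNAs move onto or off ribosomes in the first hours of that process. Cells at 0 h had received no hormones. Cells at 6 h had been in a mixture with insulin at 5 µg/ml, dexamethasone at 1 µM, isobutylmethylxanthine (IBMX, which raises cyclic AMP) at 0.5 mM and 10% fetal bovine serum, whereas the growth medium held newborn bovine serum, so the new serum and the hormones cannot be told apart. Lysates of both times were spun through sucrose gradients. Gradient fractions 5 to 7 formed the non-polysomal pool (np) and fractions 9 to 11 the polysomal pool (p), with 3 biological replicates of each of the 4 groups on 12 single-color arrays. All 4 groups come from the same line. The 6 h time was taken to lie past the first peak of these genes, but no time between 0 h and 6 h was measured.

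Fos proteins cannot bind DNA alone, and they pair with Jun proteins to form the AP-1 factor. Jun proteins can also pair with each other. Fos, Fosb, Jun, Egr1 and Egr2 are the classic fast responders, with mRNAs that are made and lost again soon after a stimulus, whereas Fosl1 and Fosl2 belong to a later and longer wave. Jund is the Jun protein of resting cells. Signals reach these genes through serum response factor, which binds CArG boxes, and through the cyclic AMP factor CREB. In fibroblasts that become adipocytes the factors mark the earliest phase, before the adipocyte genes are switched on.

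The promoters of 8 of the 10 genes, all except Egr1 and Fosl1, were taken from a RefSeq table (build GRCm38.p6). They are shown for 3 genes whose polysomal signal rose more than 2-fold (Fos and Junb, which hold the same element, and Jun, which holds another). Egr2 is shown as the only one of these 8 genes with a CArG box within the 250 bases searched. Each line gives the 250 bases before the annotated start, 5′ to 3′ on the gene's strand, with every match to a searched motif in capitals. The plus strand carries Fos and Egr2, and the minus strand Jun and Junb.
Fos, chr12:85473640-85473889: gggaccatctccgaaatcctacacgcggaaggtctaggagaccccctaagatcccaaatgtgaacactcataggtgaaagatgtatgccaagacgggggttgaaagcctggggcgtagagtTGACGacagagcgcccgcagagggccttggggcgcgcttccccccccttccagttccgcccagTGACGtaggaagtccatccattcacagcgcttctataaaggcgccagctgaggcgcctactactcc
Jun, chr4:95052223-95052472: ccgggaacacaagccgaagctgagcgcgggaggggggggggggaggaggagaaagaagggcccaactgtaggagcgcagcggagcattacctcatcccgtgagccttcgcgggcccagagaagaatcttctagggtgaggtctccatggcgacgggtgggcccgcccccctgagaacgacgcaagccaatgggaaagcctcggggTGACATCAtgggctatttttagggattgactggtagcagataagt
Junb, chr8:84978749-84978998: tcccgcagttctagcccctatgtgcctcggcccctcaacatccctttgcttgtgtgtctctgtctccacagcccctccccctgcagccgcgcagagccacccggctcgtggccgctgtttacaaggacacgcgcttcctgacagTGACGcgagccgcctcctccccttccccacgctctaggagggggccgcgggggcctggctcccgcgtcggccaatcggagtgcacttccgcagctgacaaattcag
Egr2, chr10:67537619-67537868: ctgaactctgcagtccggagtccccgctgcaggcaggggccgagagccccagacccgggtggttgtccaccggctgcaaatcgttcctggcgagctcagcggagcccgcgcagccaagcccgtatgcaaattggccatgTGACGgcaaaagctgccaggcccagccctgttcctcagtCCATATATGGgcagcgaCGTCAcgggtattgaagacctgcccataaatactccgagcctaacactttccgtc

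Capitals in Fos and Junb mark TGACG, the core of the cyclic AMP response element, which lies 129 and 66 bases before the Fos start and 106 bases before the Junb start. Matches to TGACG on either strand occurred before the starts of 5 of these genes (Atf3, Egr2, Fos, Fosb and Junb), against 17.8% of all 32851 promoter windows of that length. A gene was counted when any of its windows held the motif, and the 8 genes had 12 windows, several of them for Egr2. The full element TGACGTCA, which contains TGACG, was in none of the member windows and in 1.55% of all windows. In Jun the capitals mark TGACATCA, 45 bases before the start, a motif found in 2.93% of all windows. Egr2 had a CArG box 72 bases before the start shown (1.47% of all windows) with TGACG matches on both sides of it. The EGR motif GCGNGGGCG was found for Fosb and Fosl2 (4.7% of all windows), and the AP-1 motif TGACTCA for none of the 8 genes (4.46%). A match is a run of letters and was not tested for binding.

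All 12 probes were well above background on all 12 arrays by the mark of the scanner software, and none was saturated. Signals are given as log2 intensity after subtraction of local background and scaling by spike-ins, control RNAs added to each sample. A probe passed the test at an adjusted p below 0.05 from limma, and "over 2-fold" adds a log2 difference above 1 or below -1. The spike-ins were dimmer on the 6 h polysomal arrays, by -0.83 on average against the other arrays for the 5 dimmer transcripts and by -0.09 for the 5 brighter ones. Scaling by all of them places the median of all probes 0.54 higher at 6 h in the polysomal and 0.04 higher in the non-polysomal fraction. The polysomal median was 0.94 with the dimmer and 0.14 with the brighter transcripts alone and 0.05 with scaling to the 75th percentile of each array, so changes in the polysomal fraction are also read against the median here. In pooled lysates, fewer cells with an mRNA and less of it per cell cannot be told apart.

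As a check of the samples, all 5 hormone response genes listed for it rose in the polysomal fraction, with the glucocorticoid-induced Fkbp5 among them. In the non-polysomal fraction 4 of them rose and 1 fell, against 20.6% and 19.6% of all probes. The list holds Tsc22d3, which the paper itself reports as up-regulated in these data. All 9 preadipocyte and fibroblast markers were well above background on every array. Of 7 mature adipocyte markers 5 rose and 1 fell in the polysomal fraction, against 50.7% and 11.7% of all probes. Over 2-fold were 2 of these rises, against 19.2% of all probes. In the non-polysomal fraction 1 of the 7 markers rose, against 20.6% of all probes, and 6 did not pass. Well above background on all arrays were 4 of the 7 markers, and 2 were so on none. Of the blood cell markers, Csf1r was well above background on 12 arrays and Ptprc and Adgre1 on 1 each. The summed signal of these 3 was 49.4 to 61.4 in the 0 h non-polysomal, 31 to 114 in the 0 h polysomal, 94.9 to 118 in the 6 h non-polysomal and 102 to 109 in the 6 h polysomal group. Endothelial markers summed to 5.78 to 8.01 in the first 3 of these groups and to 32.7 to 36.8 in the 6 h polysomal group, where Cdh5 was detected on 3 arrays and Pecam1 and Kdr on none. Muscle markers summed to 131 to 173 in the polysomal and 48.8 to 69.4 in the non-polysomal groups, with Myod1 and Des detected on all arrays. Epithelial markers summed to 17.1 to 33.1, with Krt8 detected on all arrays and Epcam and Cdh1 on none. The part of these markers in the results below was not tested.

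In the polysomal fraction, 6 h of induction raised 11 of the 12 probes, all except Egr1, while 50.7% of all probes on the array rose. Over 2-fold were 7 probes of 6 genes, Fos, Fosl1, Fosl2, Jun, Junb and Jund, against 19.2% of all probes. Egr1 fell over 2-fold, as did 5% of all probes, and it was the only member among the 11.7% of probes that fell at all. The median change of the 12 probes was 1.57 on the log2 scale, and that of all probes 0.54. In the non-polysomal fraction 7 member probes rose and 3 fell, against 20.6% and 19.6% of all probes. Over 2-fold were Fosl1 and Jun upwards (8.12% of all probes) and Egr1 downwards (8.11%), and the median change was 0.64 for the members and 0.04 for all probes.

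**Figure D1:**
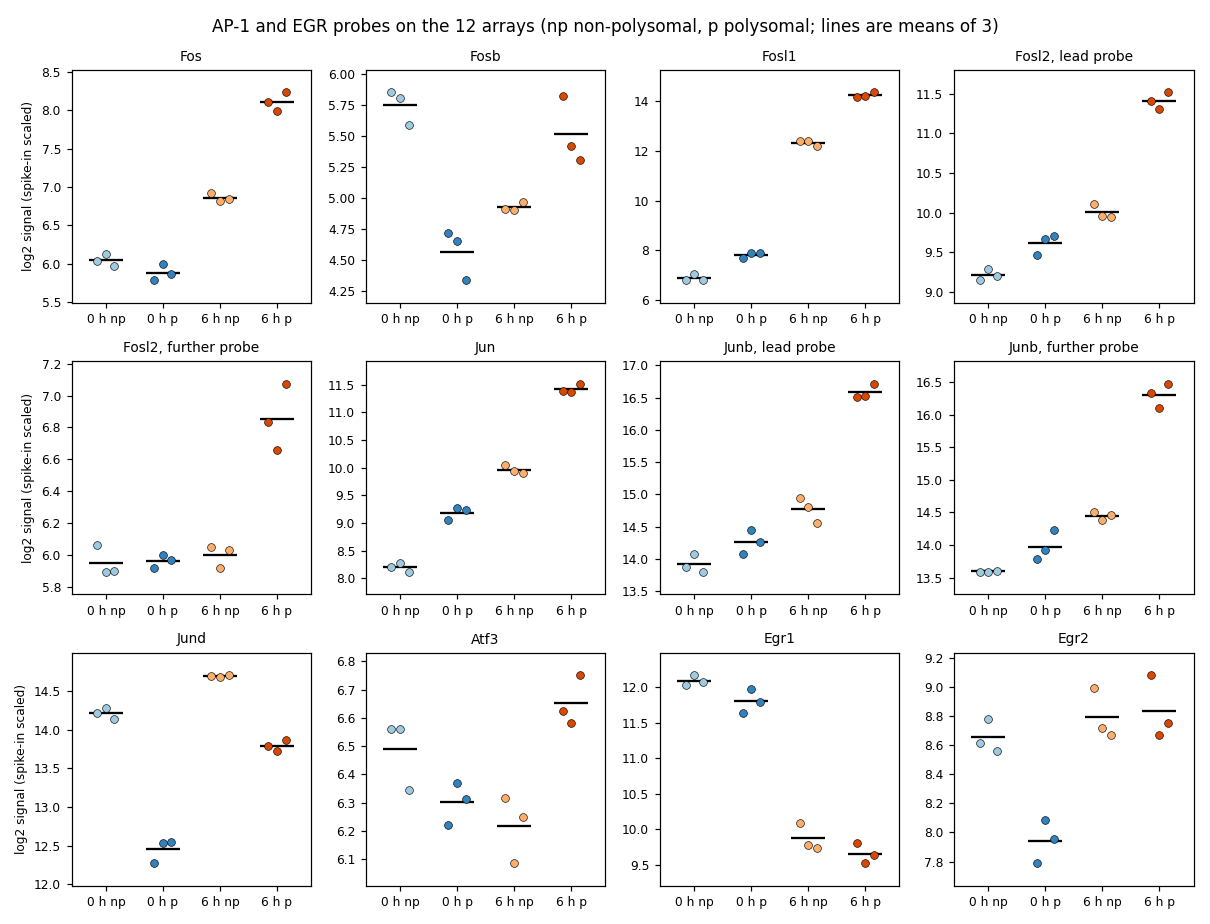
Log2 signal of each probe on the 12 arrays, in 4 groups of 3 (np, non-polysomal; p, polysomal), with a line at each group mean and an axis of its own in each panel. The Fosl1 points rise from 6.79 to 7.89 at 0 h to 12.19 to 14.37 at 6 h, and the Egr1 points drop from 11.63 to 12.17 at 0 h to 9.52 to 10.09 at 6 h.

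Fosl1 (Fra-1, a member of the later wave) had the largest change of the group. Its log2 signal was 6.79, 7.05 and 6.81 in the 0 h non-polysomal replicates and 7.70, 7.88 and 7.89 in the 0 h polysomal ones. At 6 h it was 12.41, 12.39 and 12.19 in the non-polysomal and 14.19, 14.23 and 14.37 in the polysomal fraction. The 4 groups did not overlap, and every 6 h array lay above every 0 h array. The polysomal signal rose by 6.44 (standard error 0.104, adjusted p = 2.4e-10 from limma), an 86.9-fold change that ranked 17 among all probes. The non-polysomal signal rose 43.6-fold (log2 5.45, standard error 0.104), rank 22.

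Fos, the first described member of the family, rose in both fractions as well, but much less at this time. Its log2 signal was 6.04, 6.12 and 5.97 in the non-polysomal and 5.78, 6.00 and 5.87 in the polysomal fraction at 0 h, and these groups overlapped. At 6 h it was 6.92, 6.82 and 6.84 in the non-polysomal and 8.12, 7.99 and 8.24 in the polysomal fraction, each apart from all other groups. The polysomal rise was 4.7-fold (log2 2.23, standard error 0.088, adjusted p = 1.8e-08 from limma) and the non-polysomal rise 1.76-fold (log2 0.82, standard error 0.088, adjusted p = 3e-05).

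Fosb, a close relative of Fos, moved in opposite directions in the 2 fractions. Its log2 signal in the non-polysomal fraction was 5.85, 5.81 and 5.59 at 0 h and 4.91, 4.90 and 4.97 at 6 h, a fall of 0.82 (standard error 0.148, adjusted p = 0.0011 from limma). In the polysomal fraction it was 4.72, 4.65 and 4.34 at 0 h and 5.83, 5.42 and 5.31 at 6 h, a rise of 0.95 (standard error 0.148, adjusted p = 0.00032). Within each fraction the times did not overlap, whereas the 6 h polysomal and 0 h non-polysomal values did.

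The lead probe of Fosl2 (Fra-2, the other member of the later wave) gave log2 signals of 9.15, 9.29 and 9.20 in the non-polysomal and 9.47, 9.67 and 9.71 in the polysomal fraction at 0 h, and of 10.11, 9.95 and 9.95 and of 11.42, 11.31 and 11.52 at 6 h. None of the 4 groups overlapped. It rose 3.48-fold in the polysomal (log2 1.80, standard error 0.0933, adjusted p = 1e-07 from limma) and 1.73-fold in the non-polysomal fraction. At the further probe the polysomal rise was 0.89 (95% interval 0.66 to 1.13) and the non-polysomal difference 0.05 (-0.19 to 0.28), below the lead probe's intervals of 1.59 to 2.01 and 0.58 to 1.00. The cause of the difference between the probes was not tested.

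Jun, the first described partner of Fos, rose in both fractions over 2-fold. Its log2 signal was 8.21, 8.27 and 8.12 in the non-polysomal and 9.06, 9.28 and 9.23 in the polysomal arrays of 0 h. The 6 h values were 10.05, 9.95 and 9.91 in the non-polysomal and 11.39, 11.36 and 11.52 in the polysomal fraction, and the 4 groups lay apart in this order. The rise was 4.7-fold in the polysomal (log2 2.23, standard error 0.0849, adjusted p = 1.4e-08 from limma) and 3.41-fold in the non-polysomal fraction (log2 1.77, standard error 0.0849, adjusted p = 1.3e-07).

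Junb, a Jun protein that can oppose Jun at its target genes, was read by 2 bright probes that gave nearly the same changes. The log2 signal of the lead probe was 13.88, 14.08 and 13.80 in the 0 h non-polysomal group and 14.08, 14.45 and 14.26 in the 0 h polysomal group. At 6 h it was 14.94, 14.80 and 14.56 in the non-polysomal and 16.51, 16.52 and 16.71 in the polysomal fraction. The 6 h polysomal arrays were the highest by a wide margin. The polysomal rise was 4.99-fold at the lead and 5.02-fold at the further probe (log2 2.32 and 2.33, standard errors 0.132 and 0.125), and the non-polysomal rise was 1.8-fold at both.

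Jund stood apart from the other Jun genes in its place on the gradient. Its log2 signal was 14.22, 14.28 and 14.14 in the non-polysomal and 12.27, 12.53 and 12.55 in the polysomal fraction at 0 h, and 14.70, 14.69 and 14.71 and 13.79, 13.73 and 13.87 at 6 h. Both non-polysomal groups lay above both polysomal groups. The polysomal signal rose 2.53-fold (log2 1.34, standard error 0.0871, adjusted p = 5.1e-07 from limma), and the non-polysomal signal rose 1.4-fold (log2 0.48, standard error 0.0871, adjusted p = 0.0012). The polysomal rise was not over 2-fold under 3 other scalings, at 0.85 with the 75th percentile, 0.46 with quantile normalization and 0.94 with the brighter spike-ins.

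Atf3, a stress-induced factor that pairs with Jun, changed little. Its log2 signals ran from 6.34 to 6.56 and from 6.22 to 6.37 in the non-polysomal and polysomal fractions at 0 h and from 6.09 to 6.32 and from 6.58 to 6.75 at 6 h. The polysomal rise of 0.35 (standard error 0.0939, adjusted p = 0.0093 from limma) was below the median of all probes, and its value was -0.13 under 75th percentile scaling and -0.051 under an offset from the brighter spike-ins. The non-polysomal difference of -0.27 (adjusted p = 0.042) was -0.24 without 0 h non-polysomal replicate 1 or 2 (adjusted p = 0.13 from limma for each) and -0.21 without 6 h non-polysomal replicate 2 (adjusted p = 0.16). Without all arrays numbered 1 or all numbered 3, the polysomal rise did not pass either (adjusted p = 0.089 and 0.083).

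Egr1, the fast zinc finger factor of growth signalling, was the only member that fell in both fractions. Its log2 signal was 12.04, 12.17 and 12.07 in the non-polysomal and 11.63, 11.97 and 11.80 in the polysomal fraction at 0 h, and 10.09, 9.78 and 9.74 and 9.81, 9.52 and 9.63 at 6 h. All 6 arrays of 6 h lay below all 6 of 0 h. The fall was 4.43-fold in the polysomal (log2 -2.15, standard error 0.124, adjusted p = 2.2e-07 from limma) and 4.66-fold in the non-polysomal fraction (log2 -2.22, standard error 0.124, adjusted p = 3.4e-07).

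Egr2 (Krox20, a factor that acts early in adipogenesis) did not share this fall. Its log2 signal was 8.62, 8.78 and 8.56 in the non-polysomal and 7.79, 8.08 and 7.95 in the polysomal fraction at 0 h, and 8.99, 8.72 and 8.67 and 9.08, 8.67 and 8.75 at 6 h. The 0 h polysomal arrays were the lowest, and the other 3 groups overlapped. The polysomal signal rose by 0.89 (standard error 0.136, adjusted p = 0.00027 from limma), and the non-polysomal difference of 0.14 did not pass (95% interval -0.16 to 0.45, adjusted p = 0.51).

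**Figure D2:**
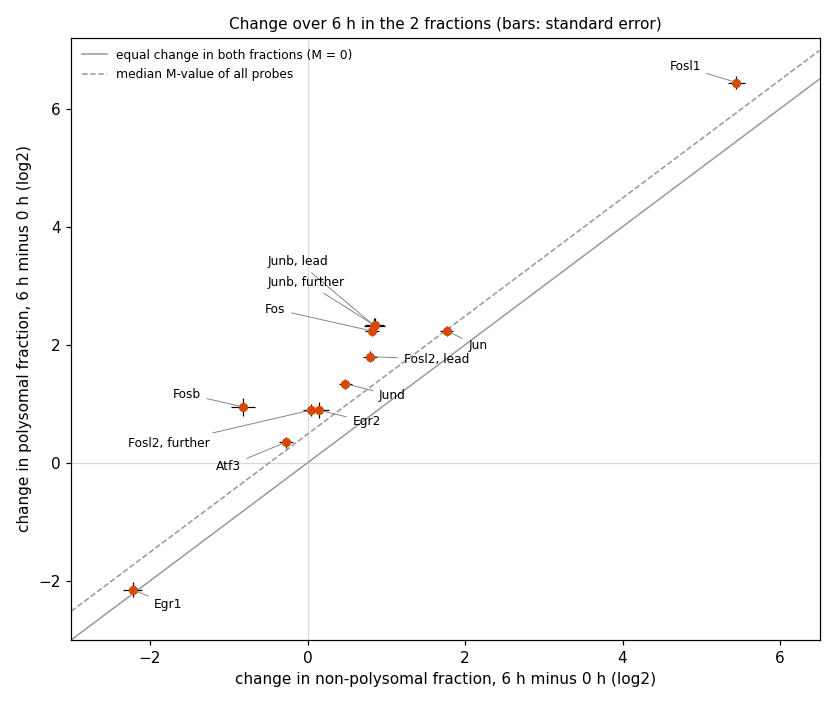
Change from 0 h to 6 h in the non-polysomal (horizontal axis) and polysomal fraction (vertical axis), both log2, for the 12 probes with standard errors. The solid line marks an equal change in both fractions and the dashed line the median M-value of all probes, 0.49. Fosl1 stands at 5.45 and 6.44, Egr1 at -2.22 and -2.15 on the solid line, and Fosb stands at -0.82 and 0.95. With quantile normalization Jun and Egr1 lie below the solid line, and Atf3 at 0.35 lies below 0 on the vertical axis with 75th percentile scaling.

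The M-value is the change of the polysomal minus that of the non-polysomal signal, so that a positive value is a shift towards the polysomal fraction. It was positive and passed the test for 11 of the 12 probes, as for 32% of all probes, and it passed below 0 for none, against 4.01%. Only 4 probes (Fos, Fosb and both of Junb) still passed above 0 with an offset from the brighter spike-ins, 8 with the 75th percentile and 9 with quantile normalization. Without all arrays of one replicate number 8 to 9 passed, and Jun did not in any of these cases (adjusted p = 0.086, 0.085 and 0.11 from limma). Over 2-fold shifts were found for 5 probes, those of Fos, Fosb, Junb (both) and the lead probe of Fosl2, against 12.1% of all probes upwards and 1.32% downwards. The median M-value was 0.93 for the members and 0.49 for all probes.

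Fosb had the highest M-value of the group, 1.77 (standard error 0.209, adjusted p = 0.00016 from limma, 2.05, 1.67 and 1.59 in the 3 replicates). Its probe was the dimmest of the 12 (mean log2 signal 5.19), and with normexp background correction the M-value was 0.88. There Fosb was not over 2-fold, whereas Fos, Fosl1, the Fosl2 lead and both Junb probes were, against 6.11% of all probes. After Fosb in the reported fit came Junb with 1.47 and 1.48 at its probes (standard errors 0.187 and 0.177) and Fos with 1.41 (standard error 0.124). These 4 probes lay above 91.8% to 96% of all probes. The Fosl2 lead probe (1.00), Fosl1 (1.00), Jund (0.86), the Fosl2 further probe (0.85), Egr2 (0.75) and Atf3 (0.62) came next, with intervals that overlapped between neighbours. The M-value of Jun, 0.47 (standard error 0.12, adjusted p = 0.013), was 0.02 below the median of all probes. Each of the 3 slides held 1 array of every group, and the 11 probes that passed had a positive M-value within each slide. Egr1 had an M-value of 0.07 (95% interval -0.32 to 0.47, adjusted p = 0.76), which was 0.41 below that median.

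The size of the shifts depended on the scaling of the arrays. With scaling to the 75th percentile, where the median M-value of all probes was 0.06, the M-value was 1.35 for Fosb, 1.05 for both Junb probes and 0.99 for Fos. Over 2-fold were 3 probes, against 3.75% of all probes. Jun had 0.04 and Egr1 -0.35 there. With quantile normalization Jun (-0.04) and Egr1 (-0.44, adjusted p = 0.03 from limma) were below 0. Fosb at 1.39 was the single member probe over 2-fold, against 3.08% of all probes.

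**Figure D3:**
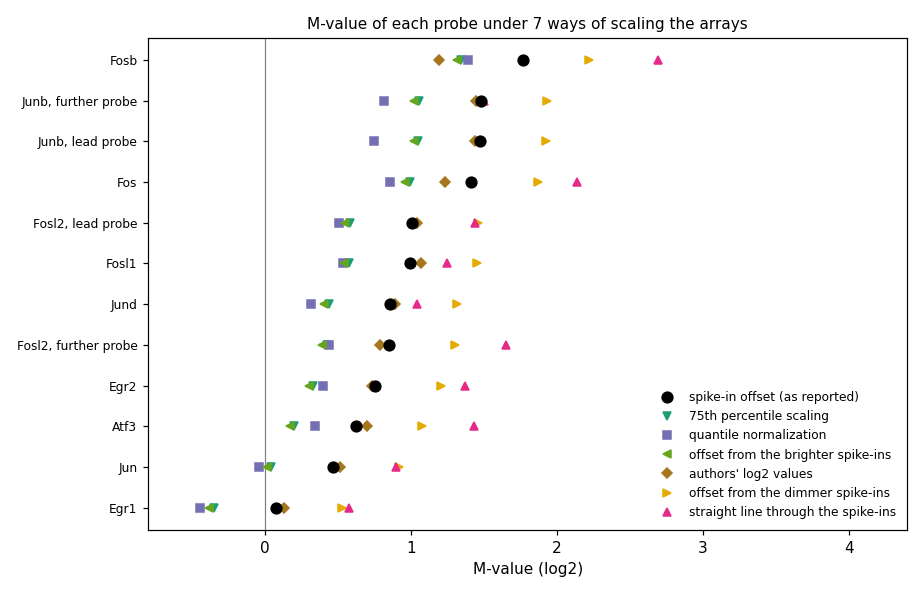
M-value (log2) of the 12 probes, ordered by the reported value, under 7 ways of scaling the arrays. Black circles are the reported values and the other marks the alternatives. The lowest marks are at 1.19 for Fosb, 0.75 and 0.82 for Junb and 0.86 for Fos, whereas the marks of Jun and Egr1 lie on both sides of 0.

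The place of each mRNA on the gradient can also be read within a time. Before induction the polysomal signal was higher than the non-polysomal one for 4 probes (Fosl1, Jun, the Fosl2 lead and the Junb further probe) and lower for 3 (Fosb, Jund and Egr2), against 37% and 15% of all probes. None was over 2-fold higher, against 27.3% of all probes. Fosb and Jund were over 2-fold lower, against 9.83%. Jund had the largest deficit, 3.39-fold (log2 -1.76, standard error 0.0871, adjusted p = 3e-08 from limma), and only 5.4% of all probes lay below it. Fosl1 at 0.94 and Jun at 0.99 were just under the 2-fold limit and passed it when 0 h non-polysomal replicate 2 or 0 h polysomal replicate 1 was left out. Jun also passed it without all arrays numbered 1. The count was then 1 to 2 in place of 0, against 27.2% to 28.2% of all probes. None of the 4 higher values passed above 0 with the 75th percentile, where Fosl1 had 0.052, Jun 0.10, the Fosl2 lead probe -0.48 and the Junb further probe -0.51. The Junb further probe (0.38) also did not pass without any 1 of the 3 non-polysomal arrays of 0 h or without 0 h polysomal replicate 3 (adjusted p = 0.058 to 0.095 from limma).

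At 6 h, 9 probes were higher in the polysomal fraction and Jund alone was lower, against 59.9% and 9.99% of all probes. Over 2-fold higher were Fos, Fosl1, Jun, both Junb probes and the Fosl2 lead probe (37.3% of all probes), and none was over 2-fold lower (6.42%). Fosl1 had the largest excess, 3.82-fold (log2 1.94, standard error 0.104), followed by Junb with 3.62-fold and 3.52-fold. Jund remained 1.87-fold lower (log2 -0.90, standard error 0.0871, adjusted p = 4.9e-06 from limma). For Egr1 (-0.22, adjusted p = 0.15) and Egr2 (0.04, adjusted p = 0.81) no difference between the fractions passed. The median over the members moved from -0.07 at 0 h to 1.06 at 6 h and that of all probes from 0.15 to 0.68. All probes include 11573 that no array showed well above background. Once dim probes were set aside, the median of the 25025 remaining ones was 0.76 at 0 h and 1.21 at 6 h. The member median was thus below that of the remaining probes at both times. With the filter on dim probes, 55.5% of probes were over 2-fold higher at 6 h, against 6 of the 12 member probes. With the 75th percentile the median of all probes was -0.74 at 0 h and -0.63 at 6 h. At 6 h Egr1 (-1.53, adjusted p = 3e-07 from limma), Egr2 (-1.27), Atf3 (-0.87), Fosb (-0.72) and the Fosl2 further probe (-0.45) were then lower in the polysomal fraction, and the difference of Fos (-0.056, adjusted p = 0.31) did not pass. Egr1 was also lower with quantile normalization (-1.53) and with the brighter spike-ins (-0.59, adjusted p = 0.0057).

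**Figure D4:**
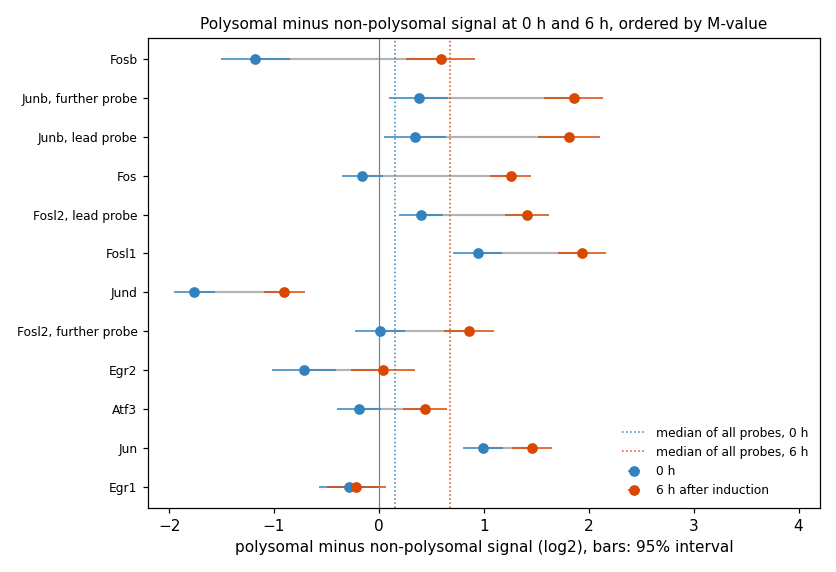
Polysomal minus non-polysomal log2 signal of the 12 probes at 0 h (blue) and 6 h (red) with 95% intervals, ordered by M-value, with the medians of all probes as dotted lines. Jund is the single probe left of 0 with its whole interval at both times, and for Egr1 the points at -0.29 and -0.22 nearly coincide.

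The genes around these factors were described through 6 lists, each gene at its lead probe. Their counts stand against 50.7% of all probes that rose and 11.7% that fell in the polysomal fraction, against 20.6% and 19.6% in the non-polysomal fraction, and their medians against 0.54 and 0.04. Of the 8 AP-1 partners and related bZIP genes measured, 5 rose and 1, Atf2, fell in each fraction, and the polysomal values had a median change of 1.21. The share that rose in the polysomal fraction was thus near that of all probes. The small Maf proteins, which lack an activation domain, led them: Maff rose 42.6-fold (log2 5.41, standard error 0.0949, adjusted p = 3.2e-10 from limma), Mafk 5.06-fold and Mafg 4.67-fold. Maff also rose 13-fold in the non-polysomal fraction and had an M-value of 1.71. Batf3, a partner of Jun in immune cells, rose 2.9-fold in the polysomal and 6.18-fold in the non-polysomal fraction, which left an M-value of -1.09 (adjusted p = 0.0052 from limma, standard error 0.237).

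Of the 4 EGR relatives and corepressors, Nab2, a corepressor that EGR proteins induce and that then binds them, rose 3.75-fold in the polysomal (log2 1.91, standard error 0.117, adjusted p = 3.3e-07 from limma) and 1.69-fold in the non-polysomal fraction. In the polysomal fraction Nab1 fell by 0.29 (log2, adjusted p = 0.041 from limma). No array showed Egr3 or Egr4 well above background, although Egr4 passed the test in the polysomal fraction. Serum response factor itself (Srf) rose 4.15-fold in the polysomal and 2.06-fold in the non-polysomal fraction, with an M-value of 1.01. Its coactivators Mrtfa and Mrtfb rose 2.22-fold and 2.76-fold in the polysomal fraction, so that 3 of the 5 genes of this list rose there, a share near that of all probes, and none fell.

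Among the 10 kinases and CREB factors upstream, 8 rose and none fell in the polysomal fraction, with a median of 0.92. Among them were Map2k1 (MEK1), 3.71-fold, Crem, a cyclic AMP-induced relative of CREB, 3.64-fold, and Mapk9 (JNK2), 2.95-fold. In the non-polysomal fraction 6 rose and 1 fell, with Crem at 5.04-fold.

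Of the 16 other immediate-early genes, 15 rose in the polysomal fraction, with a median of 1.96, and 12 rose in the non-polysomal fraction, with a median of 1.49. The zinc finger factor Klf6 fell in both, 3.36-fold and 2.88-fold. The orphan receptor Nr4a1 rose 61.3-fold in the polysomal fraction (log2 5.94, standard error 0.0925, adjusted p = 2e-10 from limma), the matrix protein gene Ccn2 29.9-fold, the MAP kinase phosphatase Dusp1 27-fold and Nr4a2 17.6-fold. The M-value of Nr4a1 was 2.85 and those of Btg2 and Ier2 were 1.48 and 1.20, whereas that of Nr4a3 was -2.53. Nr4a3 was detected above background on 3 arrays, all non-polysomal and of 6 h, where it was at least 2.21-fold higher than at 0 h (the 6 h mean against the lowest signal well above background), and it is below background in both groups of the polysomal count.

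Of the 13 genes known as AP-1 targets, 7 rose and 2 fell in each fraction, and the other 4 did not pass. In the polysomal fraction this share of rises is near that of all probes. Hmox1, a stress enzyme of heme breakdown, fell 4.07-fold and 4.54-fold, the collagenase gene Mmp13 fell in the polysomal and the urokinase gene Plau in the non-polysomal fraction. Among the genes that rose, the urokinase receptor Plaur rose 13.6-fold, the protease inhibitor Timp1 10.2-fold and the cytokine Il6 8.77-fold in the polysomal fraction. The median over the list was 0.68 in the polysomal and 0.81 in the non-polysomal fraction. Atf2, Egr4, Klf6, Hmox1, Mmp13 and Plau were named after their values were seen.

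**Figure D5:**
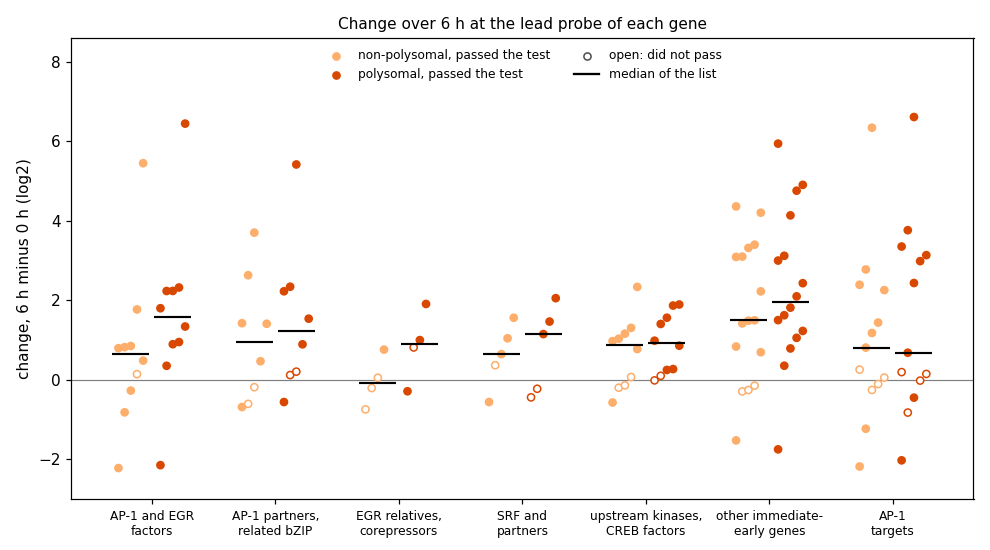
Change from 0 h to 6 h (log2) at the lead probe of each gene, for the 10 AP-1 and EGR genes and the 6 lists around them, with non-polysomal values in light and polysomal values in dark orange. Filled points passed the test and lines are medians over the genes of a list; the other immediate-early genes have medians of 1.49 and 1.96, and Fosl1, Maff and Nr4a1 have the highest polysomal values of the factors, their partners and the immediate-early genes, at 6.44, 5.41 and 5.94.

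Pearson's r over the 12 arrays was taken for 19436 probes with a symbol, well above background on every array of at least 1 group. The genes whose log2 signal followed that of a member most closely are named, as a description of arrays that share 4 groups. For Fosl1 these were Errfi1, Il1rl1 and Nuak2 (r = 0.999 each), for Jun they were Rhob, Gclc and Nfil3 (0.999 each), and for Fos they were Arf6, Atp8b2 and Arl4a (0.997 each). Fosl2 was followed by Mapk8ip3 (0.999), Gadd45b (0.998) and Slc35c1 (0.998), and Jund by Tlnrd1 (0.999), Trappc2l (0.997) and the ribosomal protein gene Rps28 (0.997). Atf3 (0.949 for Mogat2), Fosb (0.978 for Bmp7) and Egr2 (0.965 for Tmem106c) had less close matches.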

How the data were processed

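RNA of the non-polysomal and polysomal pools was hybridised to single-color Agilent whole mouse genome arrays, 12 in all. The authors deposited the output of Feature Extraction (version 10.7.1.1 per the file headers), with the signal intensity of each of 45018 spots, and a table of log2 values. Per the methods, the authors normalised to spike-ins in R. Set against the scanner values, each deposited log2 column was the log2 of the median spot signal plus a constant for the array.

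Here local background had been subtracted from the processed signal by the scanner software. Control spots (1639) and spots marked as outliers (138 to 299 an array) were left out, log2 values were averaged per probe, and each array was shifted by the mean deviation of 10 spike-in transcripts. Spike-in shifts were -0.48 to -0.21 on the 6 h polysomal arrays and 0.05 to 0.18 on the others. The 4 group means were fitted with limma 3.58.1 in R 4.3.3, with Benjamini-Hochberg adjustment over all non-control probes, after tests on simulated data. Probes were named through accessions (64.8% had a symbol). Of each array 55.7% to 60.8% of probes were well above background, which limits precision together with 3 replicates a group. Replicate numbers coincided with the 3 slides, and all arrays were scanned on 1 day.

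The members and the gene lists were chosen with earlier results of these data known. Named genes of a list are at most 4 a comparison, those with the largest differences among the genes that passed, except where a gene is not reported here. The lead probe of a gene is the one well above background on the most arrays, then the brightest. Alternatives were other scalings, normexp, the deposited log2 values, outliers kept, a filter on dim probes, the replicate block and leaving out arrays. The promoter search covered 32851 windows of 250 bases, on both strands.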

Additional observations from a re-analysis of the deposited data

Results flagged for a closer look

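The change over 6 h differed between the fractions, by the interaction term of the fit, for 11 of the 12 probes, all upwards. Of all probes 32% passed upwards and 4.01% downwards. The member count was 4 with an offset from the brighter spike-ins and 8 with 75th percentile scaling. The differences (M-values, log2) were 1.77 for Fosb, 1.48 and 1.47 for the further and lead probes of Junb, 1.41 for Fos, 1.00 for the lead probe of Fosl2, 1.00 for Fosl1, 0.86 for Jund, 0.85 for the further probe of Fosl2, 0.75 for Egr2, 0.62 for Atf3 and 0.47 for Jun. The median M-value of all probes was 0.49 with the reported scaling, 0.03 with the brighter spike-ins and 0.06 with the 75th percentile. No group had enough arrays for a check of single arrays that stand apart.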

How the results depend on the processing

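In 25 settings, 8 changed the scaling or the signal, and of the 480 member differences under them 400 kept direction and side of the threshold, 25 lost and 24 gained the pass, and 31 turned direction, 12 of them with no pass before or after. The median M-value of all probes was 0.06 with the 75th percentile, -0.00075 with quantile normalization and 1.41 when a straight line was drawn through the spike-ins. With the 75th percentile, Atf3 was -0.13 in the polysomal fraction (adjusted p = 0.12 from limma), the non-polysomal difference of the Fosl2 further probe -0.016 and the M-value of Egr1 -0.35. At 0 h the polysomal minus non-polysomal difference was then -0.48 and -0.88 for Fosl2 (lead, further) and -0.54 and -0.51 for Junb, and at 6 h it was -0.056 for Fos, -0.72 for Fosb, -0.45 for the Fosl2 further probe, -0.87 for Atf3 and -1.27 for Egr2. With quantile normalization the M-values of Jun and Egr1 were -0.040 and -0.44, the 0 h differences of Fosl2 -0.50 and -0.56, and the 6 h differences -0.19 for Fosb, -0.13 for the Fosl2 further probe, -0.54 for Atf3 and -1.24 for Egr2. With an offset from the brighter spike-ins, chosen after seeing the data like that from the dimmer ones and normexp on the median signal, Atf3 was -0.051 in the polysomal fraction, the M-value of Egr1 -0.38 and the 6 h difference of Egr2 -0.34. A straight line and the dimmer spike-ins gave -0.088 and -0.0043 for the Fosl2 further probe in the non-polysomal fraction, -0.11 and -0.064 for it at 0 h, and 0.23 and 0.16 for Egr1 at 6 h. The 0 h value of that Fosl2 probe was -0.039 with the deposited log2 values and -0.014 with normexp.

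Counts of member probes over 2-fold changed too. M-values over 2-fold numbered 3 with the 75th percentile (3.75% of all probes) and 3 with the brighter spike-ins (3.35%), against 5 (12.1%). They numbered 1 with quantile normalization (3.08%), 10 with a straight line (62.9%) and 10 with the dimmer spike-ins (36.4%). Lower at 0 h in the polysomal fraction were 6 with the 75th percentile (26.7% of all probes) and 4 with quantile normalization (14.1%), against 2 (9.83%). The count was 1 with the deposited log2 values (5.81%) and 1 with normexp (4.77%). Higher were 2 with the brighter spike-ins (28.8%), against 0 (27.3%). At 6 h, 0 were higher with the 75th percentile (12.3% of all probes) and with quantile normalization (15.6%), against 6 (37.3%). Lower were 3 with the 75th percentile (22.2%), 3 with quantile normalization (13.6%) and 1 with the brighter spike-ins (8.73%), against 0 (6.42%). The polysomal rises numbered 11 with a straight line (63.5% of all probes) and 10 with the dimmer spike-ins (37.1%), against 7 (19.2%). They numbered 6 (without Jund) with the brighter spike-ins (9.98%), the 75th percentile (8.7%) and quantile normalization (7.78%). The cause was not tested. The M-value of Fosb was 0.88 with normexp and 2.69 with a straight line. Leaving out arrays turned 9 of 900 differences, none with a pass before or after: the M-value of Egr1 ranged from -0.010 to 0.18, the 0 h difference of the Fosl2 further probe from -0.037 to 0.088 and the 6 h difference of Egr2 from -0.084 to 0.14. It lost 30 passes and gave 0 to 2 probes over 2-fold higher in the polysomal fraction at 0 h (26.5% to 28.2% of all probes). M-values over 2-fold then numbered 4 to 6 (9.66% to 12.9% of all probes), against 5, and polysomal rises 7 to 10 (17.4% to 20.1%), against 7. Same-numbered arrays of different groups deviated together with r of -0.08 to 0.21 (median 0.05) over 18 pairs. For differently numbered ones r was -0.19 to 0.12 (median -0.03) over 36 pairs. The ranges overlapped, and the numbers were not taken to pair the samples in the reported fit. With the replicate block the counts over 2-fold upwards stayed at 7 (polysomal, 19.2% of all probes), 2 (non-polysomal, 8.11%), 5 (M-value, 12.2%) and 6 (6 h, 37.4%). The non-polysomal difference of Atf3 (-0.27) then lost its pass (adjusted p = 0.078 from limma). Normexp on the mean signal, planned at first, was not run. Probes near background and the number of arrays limit the smaller differences.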
